A study of Mus musculus with 4 samples.

Results

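The nuclear genes of the mitochondrial respiratory chain were followed through the called peaks of GR and E2A ChIP-Seq in mouse liver. They were chosen by symbol, as the Nduf subunits and Ndufaf assembly factors of complex I, Sdha to Sdhd of complex II, the Uqcr genes and Cyc1 of complex III, Cox4 to Cox8 of complex IV and the Atp5 genes of complex V. Of 17545 called peaks, 60 had one of these as their nearest gene. They belonged to 38 of the 97 protein-coding genes with such symbols in RefSeq, and to none of the 19 pseudogenes. All 38 were matched by gene ID and by symbol.

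The livers came from wild-type male C57BL/6 mice (E47+/+) on chow, collected 10 h after lights on (ZT 10), with 2 biological replicates for GR and 2 for E2A. The methods give ages of 10 to 16 weeks. The labels call the mice untreated, whereas a description of the study's supplementary data calls the livers Dex-treated, and the text attached to both E2A samples names a GR ChIP, for the second in E47-/- mice. Titles, antibody and genotype name E2A in wild type for both and were followed here, and values that rest on E2A replicate 2 carry this doubt. The study's text says that E2A was profiled in livers already used for GR, so that the lists of the 2 factors are not independent samples. Each list holds the positions of peaks called in that sample, without read counts or heights, so that binding strength was not measured. The lists held 4291 and 7334 peaks for GR and 4028 and 1892 for E2A. Of 8 hepatocyte marker genes, 8 were nearest to a peak in both GR lists and in E2A replicate 1, and 7 in E2A replicate 2. Of 11 markers of other liver cells, 4 (Pecam1, Stab2, Lyve1 and Ptprc) were nearest to a peak in each GR list and 0 in the E2A lists, and a peak near a gene is not a measure of its expression.

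Complexes I to IV pass electrons from NADH and succinate to oxygen, complexes I, III and IV pump protons across the inner mitochondrial membrane, and complex V, the ATP synthase, uses the resulting gradient to make ATP. Most of their subunits are encoded in the nucleus, and only a few by mitochondrial DNA. Hepatocytes are rich in mitochondria, which also fuel gluconeogenesis. GR is a ligand-activated nuclear receptor for glucocorticoids, and E2A (Tcf3) encodes the basic helix-loop-helix factors E12 and E47, which bind E-Boxes. Promoters of respiratory chain genes are known targets of NRF1, of the ETS factor GABP and of YY1.

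The following sequences are the stretches upstream of the start site at the 5 genes whose promoter peaks carried the main patterns, in RefSeq GRCm38.p6 (mm10), 5′ to 3′ along the gene. They were cut by distance from the start and not by peak, and that of Ndufa4 stops short of the start. Ndufa4 was called in all 4 lists, Cox7a2l in 3, Atp5l in both E2A lists only, and Atp5g3 and Ndufs5 in both GR lists only. Capitals mark matches on either strand to the motif letters searched: CANNTG (E-Box), CCGGAAG (ETS), GGGCGG (Sp/KLF), the CCAAT box and TCAAGGTCA (ERR). The forms CACGTG and also CAGCTG fall within CANNTG and overlap it. The regions are, in order, chr6:11907501-11907700, chr17:83514334-83514583, chr9:44920743-44920992, chr2:73911327-73911576 and chr4:123718187-123718436, all on the minus strand.
Ndufa4: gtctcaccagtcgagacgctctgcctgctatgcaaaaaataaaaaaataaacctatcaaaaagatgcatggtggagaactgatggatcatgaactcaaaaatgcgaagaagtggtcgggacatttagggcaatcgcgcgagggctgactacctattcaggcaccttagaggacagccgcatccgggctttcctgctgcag
Cox7a2l: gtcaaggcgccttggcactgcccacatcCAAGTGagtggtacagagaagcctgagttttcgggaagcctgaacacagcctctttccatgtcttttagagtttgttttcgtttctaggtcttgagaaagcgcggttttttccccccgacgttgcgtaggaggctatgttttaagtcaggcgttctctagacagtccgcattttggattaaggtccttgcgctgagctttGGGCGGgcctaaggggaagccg
Atp5l: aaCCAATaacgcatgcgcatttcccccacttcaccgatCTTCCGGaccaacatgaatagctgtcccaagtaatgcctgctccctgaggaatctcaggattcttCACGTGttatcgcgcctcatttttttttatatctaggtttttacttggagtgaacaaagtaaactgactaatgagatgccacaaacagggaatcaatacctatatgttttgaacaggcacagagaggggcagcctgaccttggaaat
Atp5g3: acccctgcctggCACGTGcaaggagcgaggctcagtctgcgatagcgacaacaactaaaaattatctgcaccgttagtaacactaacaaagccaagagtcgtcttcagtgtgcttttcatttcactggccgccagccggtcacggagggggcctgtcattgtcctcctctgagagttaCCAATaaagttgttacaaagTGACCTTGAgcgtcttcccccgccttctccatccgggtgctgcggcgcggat
Ndufs5: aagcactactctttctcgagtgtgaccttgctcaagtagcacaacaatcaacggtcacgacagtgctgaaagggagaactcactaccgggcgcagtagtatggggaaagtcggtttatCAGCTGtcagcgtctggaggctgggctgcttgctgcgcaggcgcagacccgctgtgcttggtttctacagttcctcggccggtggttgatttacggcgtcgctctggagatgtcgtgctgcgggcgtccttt

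No letters are in capitals in the Ndufa4 stretch. In the others, the first base of the E-Box lies at -222 bp from the start site in Cox7a2l, at -147 bp in Atp5l, at -238 bp in Atp5g3 and at -132 bp in Ndufs5. Those of Atp5l and Atp5g3 read CACGTG, that of Ndufs5 CAGCTG. The E-Box of Atp5g3 lay outside both GR peaks of that gene, and that of Ndufs5 outside its GR replicate 1 peak. The Ndufa4 stretch lay outside both GR peaks of Ndufa4. A match of letters is a description and not a binding site.

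The number of genes with a promoter peak differed most between the GR replicates. A promoter peak is one that the deposited annotation places from 1000 bp upstream to 500 bp downstream of the start site of its nearest gene. Of the 97 genes, 6 (6.19%, 95% Wilson interval 2.87 to 12.8%) had one in GR replicate 1 and 24 (24.7%, 17.2 to 34.2%) in GR replicate 2. In E2A replicate 1 it was 7 (7.22%, 3.54 to 14.2%) and in E2A replicate 2 it was 6 (6.19%, 2.87 to 12.8%). Among all 21900 protein-coding genes, 6.1% had a promoter peak in GR replicate 1, 17.7% in GR replicate 2, 7.06% in E2A replicate 1 and 2.95% in E2A replicate 2. The interval of the respiratory chain genes included the share of all genes in each list, near its lower bound in GR replicate 2 and in E2A replicate 2. The mean was 15 genes for GR (SD 12.7, n = 2 lists) and 6.5 for E2A (SD 0.707, n = 2), a difference of 8.5 genes (two-sided exact permutation test, p = 1). With 2 against 2 lists the smallest p this test can give is 0.333. The GR excess rests on replicate 2, since without it GR had 0.5 genes fewer than the E2A mean (-0.5), and without GR replicate 1 the difference was 17.5.

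**Figure D1:**
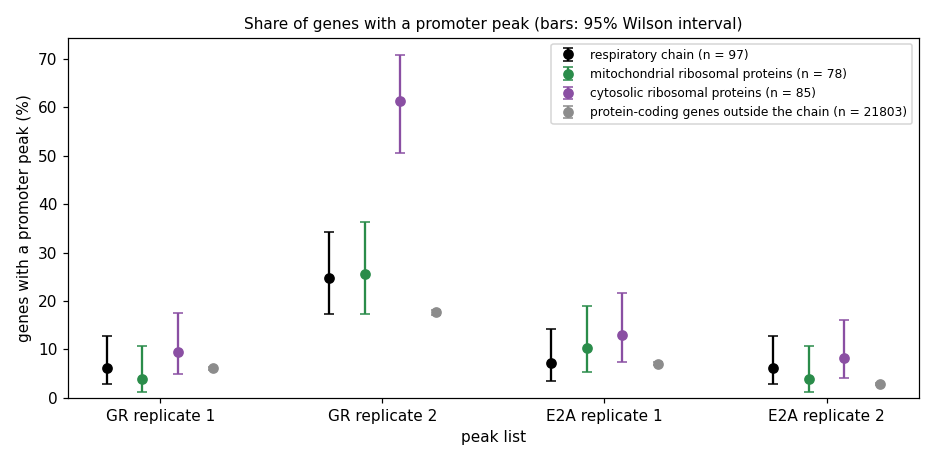
Share of genes with a promoter peak (percent, y axis) in each of the 4 peak lists (x axis) for the 97 respiratory chain genes, 78 mitochondrial ribosomal protein genes, 85 cytosolic ribosomal protein genes and the 21803 other protein-coding genes. Points are shares and bars 95% Wilson intervals, and the respiratory chain stands at 6.19% in GR replicate 1 and at 24.7% in GR replicate 2.

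Of the 6 respiratory chain genes in GR replicate 1, 6 had a meeting promoter peak in replicate 2, so that the second list added 18 genes and the first added none. The 6 were Atp5a1, Atp5g3, Cox5a, Ndufa4, Ndufb9 and Ndufs5. The gain from the shorter to the longer GR list was 4-fold here, against 2.89-fold for the protein-coding genes outside the chain. It was 6.67-fold for mitochondrial ribosomal protein genes (3 and 20 of 78) and 6.5-fold for cytosolic ones (8 and 52 of 85). These ratios come from 2 libraries and were not tested, and the lists differ in size for all genes. For E2A, 4 respiratory chain genes were in both lists: Atp5d, Atp5l, Cox7a2l and Ndufa4. Over all protein-coding genes 5.23% had a promoter peak in both GR lists and 2.09% in both E2A lists.

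Per gene, 29 of the 97 had a promoter peak in at least 1 list (20.8% of all protein-coding genes did), and 20 of these in 1 list, 5 in 2, 3 in 3 and 1 in all 4. The last was Ndufa4 (0.863% of all protein-coding genes were in all 4). Of all 21900 protein-coding genes, 2600 had a promoter peak in 1 list, 1246 in 2 and 516 in 3. Another 9 genes of the chain had peaks of which none was a promoter peak. The other 59 genes of the chain were nearest to no peak (27.1% of all protein-coding genes were nearest to a peak).

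**Figure D2:**
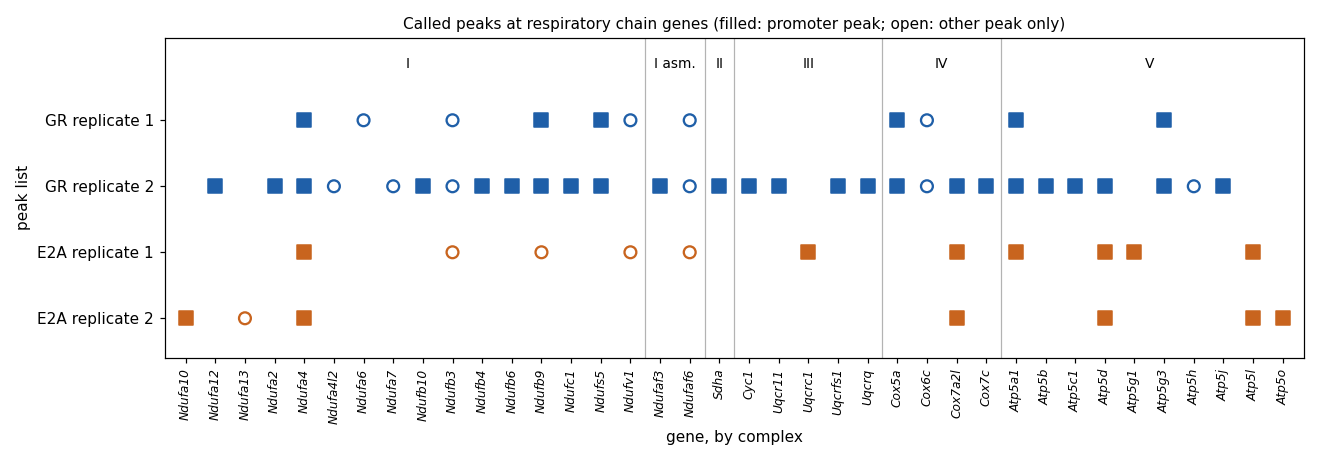
Called peaks of the 38 respiratory chain genes with a peak (x axis, grouped by complex) in the 4 lists (y axis), as filled squares for promoter peaks and open circles for genes with other peaks only. Ndufa4 is filled in all 4 lists, and 24 genes are filled in GR replicate 2 against 6 in GR replicate 1.

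In complex I, which oxidises NADH, 10 of 41 genes had a promoter peak, 9 of them for GR (18.5% of all protein-coding genes in at least 1 GR list) and 2 for E2A (7.93% in at least 1 E2A list). None of the 7 core subunits, which form the redox arm, was among them (0%, 0 to 35.4%). This interval included the 20.8% of all protein-coding genes, so that 7 genes do not set the core subunits apart. The promoter peaks fell on accessory subunits and on Ndufa4. Ndufb9 and Ndufs5, both accessory subunits, were called in both GR lists and in neither E2A list at the promoter. At Ndufs5 the peaks were 320 bp wide in replicate 1 and 544 bp in replicate 2, and both covered the start site. At Ndufb9 they were 338 and 686 bp wide, and the latter was the widest GR promoter peak of the 97 genes. The peaks of Ndufb9 also covered the start of Tatdn1, which is read in the other direction. Its only E2A peak (replicate 1) lay 52749 bp from the start, in an intron of Mtss1.

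The narrowest promoter peak was that of Ndufb6 in GR replicate 2, which was 257 bp wide and ended at -44 bp from the start. In that list alone stood Ndufa12, Ndufa2, Ndufb10, Ndufb4 and Ndufc1 as well, with widths of 269 to 545 bp. Ndufa10 had a single promoter peak, of 402 bp, in E2A replicate 2. Among 8 complex I assembly factors, Ndufaf3 alone had a promoter peak, of 321 bp in GR replicate 2, and this peak lay over Dalrd3.

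Ndufa4, first described with complex I and since assigned to complex IV, was counted by its symbol under complex I and had 4 peaks, the most of any gene of the chain. The GR peaks were 272 bp (replicate 1) and 270 bp (replicate 2) wide, and the E2A peaks 703 bp and 505 bp. The 703 bp peak was the widest promoter peak in the chain. The GR peaks were centred 144.5 and 121.5 bp downstream of the start, and the E2A peaks upstream of it, at -74 and -185 bp. GR and E2A peaks shared from 59 to 270 bp in the 4 pairings of lists. Both E2A peaks and neither GR peak overlapped the RefSeq gene Phf14, whose nearest GENCODE start was 17998 bp or more away.

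In complex II, which oxidises succinate, Sdha had a promoter peak, of 434 bp in GR replicate 2, that also covered the start of Ccdc127. Sdha encodes the flavoprotein that holds the active site. Sdhb, Sdhc and Sdhd had no peak as nearest gene.

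In complex III, 5 of 9 genes had a promoter peak (20.8% of all protein-coding genes), each in 1 list. Cyc1 (cytochrome c1), Uqcrfs1 (the Rieske iron-sulfur protein) and the small subunits Uqcr11 and Uqcrq were in GR replicate 2, with widths of 423, 298, 302 and 282 bp. Uqcrc1, a core protein, had a peak of 268 bp in E2A replicate 1. No complex III gene was in both lists of a ChIP or in both ChIPs.

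In complex IV, which reduces oxygen, 3 of 18 genes had a promoter peak (20.8% of all protein-coding genes). Cox5a, a subunit on the matrix side, was called in both GR lists, with widths of 274 bp and 596 bp, and in neither E2A list. Cox7c was in GR replicate 2 alone, with 287 bp. Cox7a2l, counted here by its symbol, was called in GR replicate 2 (533 bp) and in E2A replicates 1 (597 bp) and 2 (523 bp). The GR peak shared 476 bp with the first E2A peak and 354 bp with the second. Its start site was covered in the 3 lists.

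In complex V, 9 of 17 genes had a promoter peak (20.8% of all protein-coding genes), 6 for GR (18.5%) and 5 for E2A (7.93%). Atp5g3, which encodes the c ring of the rotor, was in both GR lists (313 and 397 bp) and in neither E2A list, while Atp5g1, another gene for the same protein, had a peak of 656 bp in E2A replicate 1. Atp5l, subunit g of the membrane part, showed the opposite pattern to Atp5g3. It was in both E2A lists (651 and 596 bp) and in neither GR list. Its peaks covered the start site of Atp5l and overlapped the non-coding gene Gm30934.

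Atp5a1, the alpha subunit of the catalytic head, was called in both GR lists (349 and 470 bp) and in E2A replicate 1 (312 bp). All 3 peaks lay downstream of the start that the deposited annotation uses, by 233, 16 and 362 bp. The E2A peak shared 220 bp with the GR peak of replicate 1 and 124 bp with that of replicate 2. Atp5d, the delta subunit of the central stalk, had peaks of both factors that did not meet. The GR peak (replicate 2, 466 bp) covered the main start, and the E2A peaks (274 bp and 352 bp) ended upstream of it, at -748 and -801 bp, where GENCODE places another start of the gene. Both E2A peaks at Atp5d held the letters TGACGTCA of the cAMP response element (CRE), printed in capitals with the bases on each side, chr10:80141381-80141410, plus strand.
Atp5d: gggcagggtgaTGACGTCAtgaccgagagc

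The other complex V genes were in 1 list each. Atp5b, the catalytic beta subunit, Atp5c1 of the central stalk and Atp5j of the peripheral stalk were in GR replicate 2, with Atp5j at 2 separate peaks of 320 and 288 bp. Atp5o, also of the peripheral stalk, had a peak of 343 bp in E2A replicate 2 that ended at -120 bp from the start. Both Atp5j peaks overlapped Gabpa, which encodes the DNA-binding part of GABP, and the 320 bp peak covered its start, but they were annotated to Atp5j only.

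**Figure D3:**
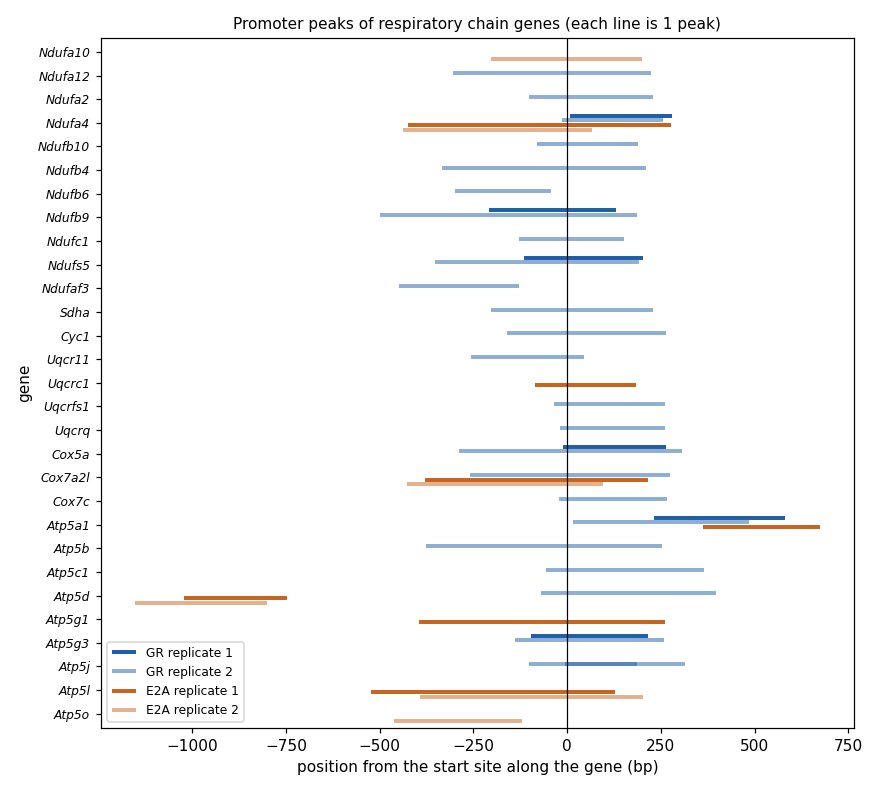
Extent of each promoter peak of the respiratory chain genes (y axis) from the start site along the gene in bp (x axis, 0 is the start, negative is upstream), with GR in blue and E2A in orange, replicate 1 dark and replicate 2 pale. GR peaks at Ndufa4 are centred 144.5 and 121.5 bp downstream and the E2A peaks upstream, and the E2A peaks of Atp5d stand apart, with their near ends at -748 and -801 bp.

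GR promoter peaks were centred downstream of the start site more often than E2A promoter peaks, in the chain as in the other genes. In GR replicate 1, 5 of 6 centres were downstream with a median of 92.8 bp, and in GR replicate 2, 17 of 25 with a median of 41.5 bp. In E2A replicate 1 it was 2 of 7, with a median of -74 bp, and in E2A replicate 2 it was 0 of 6, with a median of -176 bp. For all other genes the medians were 37.5 and 41 bp for GR and -72.8 and -81 bp for E2A. The difference was not tested.

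After peaks of the replicates that shared at least 1 bp were merged, the chain had 25 GR and 9 E2A promoter regions. Of the GR regions, 3 (12%, 4.17 to 30.0%) met an E2A peak, at Atp5a1, Cox7a2l and Ndufa4, against 30.3% (28.9 to 31.6%) of the 4408 GR promoter regions of all other genes. Of the E2A regions, the same 3 of 9 (33.3%, 12.1 to 64.6%) met a GR peak, against 70.5% (68.3 to 72.5%) of 1862. In both comparisons the share lay below that of the other genes, and for the merged E2A regions the intervals did not overlap. In the single E2A lists they did, with 42.9% (15.8 to 75%) against 70.4% (68.2 to 72.6%) in replicate 1 and 33.3% (9.68 to 70.0%) against 71.5% (68.0 to 74.7%) in replicate 2. For GR they overlapped between 28.9 and 30.0%. The GR shares depended on the lists used, with 33.3% against 43.7% without GR replicate 2, 8% against 11.8% without E2A replicate 1, and 12% against 27.2% without E2A replicate 2. Regions are not replicates, and the intervals cover counting error only. By gene, 3 of 97 had promoter peaks of GR and E2A that met (5.44% of all protein-coding genes did), and 4 had promoter peaks of both (5.67%).

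**Figure D4:**
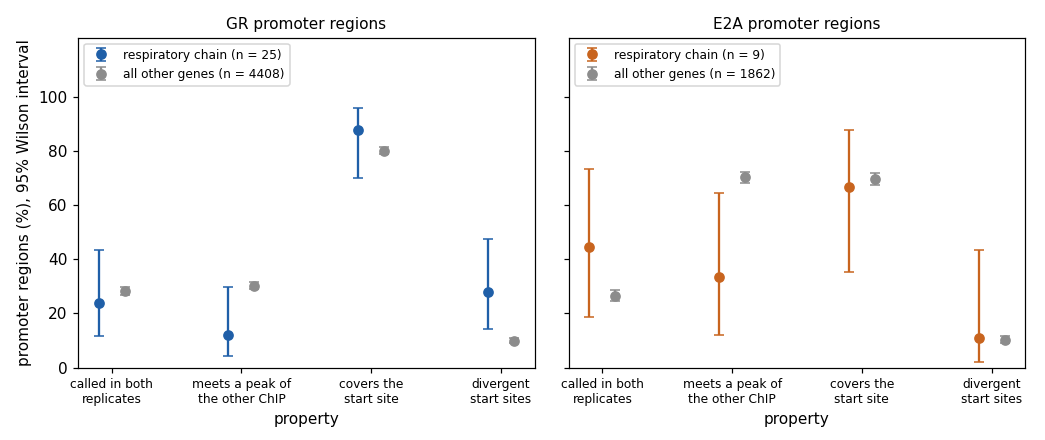
Share of GR (left) and E2A (right) promoter regions (percent, y axis) with each of 4 properties (x axis), for the respiratory chain in colour and all other genes in grey, with 95% Wilson intervals. Of the respiratory chain regions, 12% of 25 for GR and 33.3% of 9 for E2A met a peak of the other ChIP, below the 30.3% and 70.5% of the other genes.

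Among genes with an E2A promoter peak, the low share was not seen in every family of housekeeping genes. By gene, GR and E2A promoter peaks met at 12 of the 12 cytosolic ribosomal protein genes with an E2A promoter peak, at 3 of 8 mitochondrial ribosomal protein genes and at 3 of 9 respiratory chain genes, against 68.8% of 1727 other genes. As a share of the genes with a GR promoter peak it was 22.6% of 53, 15% of 20, 12.5% of 24 and 29.5% of 4033. By this measure each of the families lay below the other genes. No intervals were computed for these shares by gene.

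Agreement of the replicates was near that of the other genes for GR. Of the 25 GR regions, 24% (11.5 to 43.4%) were called in both replicates, against 28.3% (27.0 to 29.6%), and of the 9 E2A regions 44.4% (18.9 to 73.3%), against 26.5% (24.5 to 28.5%). The intervals overlapped in both cases. Over both lists, GR promoter peaks had a median width of 331 bp in the chain and 425 bp in the other genes. In replicate 1 the medians were 316.5 and 387 bp and in replicate 2 397 and 440 bp. E2A went the other way, with 597 against 418 bp in replicate 1 and 453.5 against 377 bp in replicate 2. Widths were given by the peak caller and depend on the depth of a library as well as on the site.

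Among GR promoter regions, those of the chain lay at shared promoters more often than those of other genes. The share of shared promoters among genes without a GR peak was not counted. A trait of all promoters of the chain can therefore not be told apart from one of its GR regions. Of the 25 GR regions of the chain, 7 (28%, 14.3 to 47.6%) were within 1000 bp of start sites of 2 genes on opposite strands, against 9.87% (9.02 to 10.8%) of the other GR promoter regions. They belonged to Atp5a1 with Haus1, Atp5c1 with Kin, Atp5j with Gabpa (2 regions), Ndufa2 with Ik, Ndufb9 with Tatdn1 and Sdha with Ccdc127. A peak there cannot be assigned to 1 of the 2 genes. Among the 9 E2A regions it was 1, at Atp5a1. Start sites were covered in 88% (70.0 to 95.8%) of the GR regions, against 80.3% (79.1 to 81.4%).

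Conversely, some genes of the chain had a peak within 1000 bp of a GENCODE start that was annotated to another gene. Cox4i1 (a peak assigned to Gm27021) and Sdhd (Timm8b) were reached in both GR lists. Ndufa11 (Vmac) was reached in GR replicate 2 and E2A replicate 2, and Ndufa7 (Rps28) and Uqcrb (Gm10767) in GR replicate 2. Counted by GENCODE starts, 8, 30, 7 and 7 genes of the chain had a peak in GR replicates 1 and 2 and E2A replicates 1 and 2.

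Peaks away from promoters were 16 of the 60, at 10 genes, and for 9 of these genes they were the only peaks. Promoter peaks were 54.5 and 80.6% of the peaks of the chain in GR replicates 1 and 2, against 34.3 and 57.3% for all other genes. In E2A replicates 1 and 2 they were 63.6 and 85.7%, against 41.2 and 36.9%. The interval of the chain included the share of the other genes in replicate 1 of each ChIP and lay above it in replicate 2. Ndufb3, a complex I accessory subunit, had peaks in GR replicates 1 and 2 and E2A replicate 1 that met, 23804, 23754 and 23902 bp from the start in intergenic sequence. Ndufaf6, an assembly factor, had GR peaks in both replicates upstream, at -8653 and -8610 bp, and an E2A peak in replicate 1 at -26580 bp. Cox6c had GR peaks in both replicates 50858 and 50783 bp from the start, in an exon of Vps13b. In the last case the nearest start belongs to the chain and the peak lies in another gene.

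Single peaks were found at Ndufa6 (GR replicate 1, at -7280 bp), Ndufa7 (GR replicate 2, in an intron), Ndufa4l2 (GR replicate 2, in the 3′ UTR), Ndufa13 (E2A replicate 2, in an intron of Gatad2a) and Atp5h (GR replicate 2). The Atp5h peak lay 6451 bp from the start over arginine tRNA genes.

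Ndufv1, the core subunit that binds NADH, was called in GR replicate 1 and E2A replicate 1 at the same intergenic place, at -11481 and -11501 bp from the start. All bases of both peaks (100%) are repeat-masked in RefSeq GRCm38.p6. Among the other 58 peaks of the chain the highest masked share was 46.4%, for Atp5o. More than 50% of the bases were masked in 12.5% of the 16 non-promoter peaks of the chain and in 5.29% of the 9486 of all other genes. The first bases shared by the GR and the E2A peak are shown for Ndufv1 (chr19:4024256-4024405) and, for contrast, for Ndufb3 (chr1:58610299-58610448), on the plus strand, with a CANNTG match in capitals.
Ndufv1: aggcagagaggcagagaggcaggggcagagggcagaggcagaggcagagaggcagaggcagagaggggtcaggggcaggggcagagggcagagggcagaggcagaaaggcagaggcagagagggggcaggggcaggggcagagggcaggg
Ndufb3: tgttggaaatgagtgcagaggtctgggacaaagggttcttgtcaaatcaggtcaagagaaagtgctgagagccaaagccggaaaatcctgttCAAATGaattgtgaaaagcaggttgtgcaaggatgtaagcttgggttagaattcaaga

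The Ndufv1 stretch is masked throughout and holds none of the 11 motifs, while the Ndufb3 stretch holds 1 E-Box. The part of the repeat in the Ndufv1 calls was not tested.

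The genes without any peak included 6 of the 7 core subunits of complex I. As nearest gene, 25 of 41 complex I genes, 6 of 8 assembly factors and 3 of 4 complex II genes had none. It was 4 of 9 complex III genes, 14 of 18 complex IV genes and 7 of 17 complex V genes. Cox4i1, Sdhd, Ndufa11 and Uqcrb are among them, although a peak annotated to another gene lay within 1000 bp of a GENCODE start. Of all protein-coding genes, 27.1% were nearest to a peak in at least 1 list. The share was 14.3% of the core subunits of complex I, 22.2% of complex IV genes and 58.8% of complex V genes. The 95% Wilson interval included 27.1% for the core subunits and complex IV, so that neither is set apart by its lack of peaks. For complex V the interval lay above 27.1%. Complex IV had the highest share of genes with none among the complexes. Of its genes with none, Cox4i2, Cox6a2, Cox6b2, Cox7a1, Cox7b2, Cox8b and Cox8c are isoforms of muscle, lung or testis. The others with none were Cox4i1, Cox5b, Cox6a1, Cox6b1, Cox7a2, Cox7b and Cox8a. A link between isoforms and the lack of peaks was not tested.

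Motif letters were searched in 200 bp around each region's midpoint and, apart from any peak, in RefSeq promoters from 250 bp before to 50 bp after the start, of which 78 of the 97 genes had one in the table used. In these promoters the letters CCGGAAG (ETS) were found in 23.1% (15.1 to 33.6%) of the 78, against 11.8% (11.4 to 12.3%) of 17414 other promoters. The palindromic NRF1 motif of 10 bases, taken without mismatch, was found in 8.97% (4.42 to 17.4%) against 1.29% (1.13 to 1.46%), and AAGATGGC (YY1) in 12.8% (7.12 to 22%) against 3.18% (2.93 to 3.45%). For TCAAGGTCA (ERR) the shares were 2.56% (0.706 to 8.88%) and 0.322% (0.248 to 0.417%). For these 4 motifs the intervals did not overlap, although ERR letters were in only 2 of the 78 promoters. The shares were, for TGACGTCA (CRE) 5.13% and 2.33%, for GGGCGG (Sp/KLF) 44.9% and 46.3%, for CCAAT 43.6% and 39.0%, and for CANNTG (E-Box) 71.8% and 68.8%.

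In the 25 GR promoter regions of the chain the intervals for these 4 motifs included the shares of the other regions. ETS letters were in 12% (4.17 to 30.0%), against 11.1% of the other GR promoter regions, the NRF1 motif in 0 of 25, with a Wilson upper bound of 13.3%, against 1.38%, and YY1 letters in 8% (2.22 to 25%), against 3.77%. ERR letters were in 0 of 25, against 0.227%, and in 12% against 0.839% when the whole merged region was searched. The 7 genes of the chain with the NRF1 motif in the promoter were Atp5g2, Atp5k, Cox6a1, Ndufa11, Ndufaf4, Ndufaf5 and Uqcrc1. Of these, Uqcrc1 had a promoter peak as nearest gene, for E2A (7.93% of all protein-coding genes), and none had one for GR. The GR share was 18.5% of all protein-coding genes and 24.7% of the chain, and 7 genes are too few to set against it. Ndufa11 also had peaks near a GENCODE start in GR replicate 2 and E2A replicate 2 that were annotated to Vmac. The palindromic GRE, 2 inverted half-sites with 3 bases between them, was found in 0 of the 25 GR regions, against 0.817% of the others, and in 0 of the 78 promoters, against 0.442%. E-Box letters were in 36% (20.2 to 55.5%) of the GR regions and in 44.4% (18.9 to 73.3%) of the 9 E2A regions, against 41.8% and 45.2% of those of other genes. CRE letters were in 2 of the 9 E2A regions, at Atp5d and Ndufa10, against 4.99% of the others. The median GC content of these 200 bp was 65% against 68% for GR and 57.5% against 66% for E2A.

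Genes that assemble the chain or shuttle electrons without matching its symbols, and its known regulators, were counted from a list of 48. Of 36 assembly factors, carriers and inhibitors, 14 had a promoter peak, against 20.8% of all protein-coding genes. It was 4 in GR replicate 1 (6.1% of all), 13 in GR replicate 2 (17.7%), 2 in E2A replicate 1 (7.06%) and 1 in E2A replicate 2 (2.95%). Cox20, an assembly factor of complex IV, was the only one in all 4 lists. Cox16, of complex IV, and Timmdc1, of complex I, were in both GR lists and neither E2A list. The electron carrier Cycs and the inhibitor Atpif1 had no peak.

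Of 12 regulators, 7 had a promoter peak (20.8% of all protein-coding genes), 3 in GR replicate 1 (6.1%), 5 in GR replicate 2 (17.7%), 3 in E2A replicate 1 (7.06%) and 1 in E2A replicate 2 (2.95%). GR and E2A promoter peaks met at 3 of them (5.44%), Gabpb1, Ppargc1b and Yy1. Ppargc1a, a coactivator of mitochondrial gene expression, had 2 peaks in each GR list, none of them at the promoter, and none for E2A.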

How the data were processed

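GR and E2A ChIP-Seq was measured in wild-type livers, with 4 samples in all. Reads were mapped by the authors to mm10 with BWA, cleared of duplicates with Picard, reduced to a common depth (18 mio read pairs per GR library, 22 mio per E2A library), and used to call peaks in each sample with MACS2. The submitters' processing notes give BWA 0.7.13, Picard 1.119 and MACS2 2.1.0. The peak threshold and the annotation tool are not given in the sources used here. The deposited lists give start, end, width and distance to the start site in bp, with no normalization, no score and no counts. The depth of a peak is therefore unknown. The GR replicate numbers follow the sample titles, whereas the list names number them in reverse.

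Members were found by symbol in the deposited annotation and set beside RefSeq GRCm38.p6 genes. Peaks of replicates sharing at least 1 bp were merged, and GR and E2A peaks sharing at least 1 bp were counted as meeting. Cytosolic ribosomal protein genes were taken by symbol, and S6 kinases, Rps19bp1 and Rps23rg1, which the symbol rule also caught, were removed after the data were seen. Start sites of other genes came from GENCODE vM21. Motifs were matched by exact letters on both strands in 200 bp at region centres. Shares carry 95% Wilson intervals. The counts of genes per list were compared with a two-sided exact permutation test over the lists. No test was run over peaks or genes, which are not replicates. The study's text says that GR and E2A were profiled in the same livers, but no source used here ties a replicate number to an animal. Overlap, merging and motif functions were checked on simulated data with planted answers. Python 3.11.15, numpy 2.4.6, pandas 2.3.3, scipy 1.17.1, pysam 0.24.0 and matplotlib 3.10.9 were used.

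The members, lists, motifs and alternatives were chosen with earlier results of these data known. Genes were named if their promoter peaks were in all 4 lists, in both lists of one ChIP and neither of the other, if they had other peaks only, if they had the most peaks or the widest or narrowest promoter peak, or, by complex, if they had none. The remaining members were named after their values were seen. Alternatives changed the overlap, the promoter definition, the gene assignment, the width limit, the gene set and the motif window, and left out each list in turn. The reads, the mutant livers and other assays of the study were not analysed here. Some genes are not reported here by name.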

Additional observations from a re-analysis of the deposited data

How the results depend on the processing

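For the counts, shares, widths and the number of motifs with a higher share, 100 values were recomputed under an alternative. Of these, 86 stayed within the limits set for them. Part of them could not move, since the rules for overlap do not enter the gene counts, the widths or the difference between GR and E2A. The limits were also wide, as this difference counted as kept unless its sign changed. The 86 are therefore no measure of how robust the values are. The difference in genes per list between GR and E2A was 8.5 and ranged from -0.5 to 17.5 when a list was left out. It was negative only without GR replicate 2. With the replicate numbers as a block (sign flips within pairs) it was 8.5 with an exact p of 1, where the smallest possible is 0.5. Leaving out a list put the number of respiratory chain genes with a GR promoter peak between 6 and 24, the share of their GR promoter regions that met an E2A peak between 8 and 33.3%, that of the other regions between 11.8 and 43.7%, and the median width of GR promoter peaks between 316.5 and 397 bp in the chain and 387 and 440 bp in the others. Without GR replicate 2 the shares were 33.3% in the chain, from 6 regions, and 43.7% in the others.

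When 50% of the shorter peak had to be shared, 27.7% of the other GR promoter regions met an E2A peak, and with centres within 250 bp 26.1%, while the share in the chain was 12% under both. With centres within 250 bp, 24.0% of the other GR regions and 23.6% of the other E2A regions were called in both replicates. With peaks of at most 2000 bp it was 26.7% for GR. The number of the 11 motifs with a higher share in the chain was 4 in GR promoter regions and 7 in the reference promoters. With the genes removed from the cytosolic ribosomal list put back, 54 of 97 had a promoter peak in GR replicate 2, against 52 of 85 (chosen after seeing the data). Agreement of replicates cannot be computed with 1 list left out. The cause of these shifts was not tested. The lists have no heights, so that a gene without a peak may have fallen just under the calling threshold.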
